A study of Homo sapiens with 12 samples.

Results

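The genes described here make cholesterol, sense it, take it up, move it inside the cell and export it. The list holds 29 members of the 57500 genes in the count table, chosen by symbol, of which 18 encode enzymes of synthesis, 5 control the pathway, 4 act in uptake and movement, and 2 in efflux. Where a symbol occurred more than once the row with the highest total count was taken, and all 29 members were among the 16251 genes that passed the filter on low counts. The rule uses symbols alone, and the list was drawn up with earlier results of these data known. RNA was sequenced from MRC5 cells, a line of human embryonic lung fibroblasts, in 12 libraries. The 4 groups of 3 libraries were growing cells (Proliferative), cells exposed to X-rays at 20 Gy (Sen(IR)), and cells exposed likewise and then held in CTPI2 (Sen(IR+CTPI2)) or in UK5099 (Sen(IR+UK5099)). UK5099 blocks the mitochondrial pyruvate carrier and CTPI2 blocks the mitochondrial citrate carrier SLC25A1, so the design asks how each transporter bears on the genes that irradiated cells express. By the methods, irradiated cells were harvested 10 to 12 days later, and an inhibitor went in 1 day after the X-rays and stayed for 12 days. They give 100 μM for UK5099 and 15 or 30 μM for CTPI2, without saying which of the CTPI2 doses was sequenced. The inhibitors therefore differ in target and in dose. The study calls its RNA-seq replicates independent experiments or conditions, and all cells came from 1 line, so the p-values measure the spread within that line.

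Cells build cholesterol from cytosolic acetyl-CoA, which comes in part from citrate exported by mitochondria. Acetyl-CoA is joined stepwise into mevalonate, isoprenoid units, squalene and lanosterol, and lanosterol is then trimmed and reduced to cholesterol. SREBP-2, the product of SREBF2, switches on the enzymes of this route when sterol in the endoplasmic reticulum falls. SCAP escorts SREBP-2 to the Golgi for cleavage, and the INSIG proteins hold SCAP back when sterol is plentiful. When sterol is high, oxysterols activate the nuclear receptor LXR, which raises the exporters ABCA1 and ABCG1 and the ubiquitin ligase MYLIP, which removes lipoprotein receptors. Fibroblasts have long served as the model cells for this feedback.

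The promoters of the 4 members that rose with UK5099 are shown because the pathway's factors are known to bind near the start of its genes, SREBP at sterol regulatory elements and NF-Y at CCAAT boxes. RefSeq windows of 300 bases, from 250 before to 50 after each gene's start on GRCh38.p14, matched 25 of the 29 members, and ABCG1, ACAT2, FDFT1 and SQLE had no match. Parts of the windows of these 4 genes, all on the plus strand and read 5′ to 3′, are printed below with TCACNCCAC and CCAAT, on either strand, in capitals.
SREBF2, chr22:41832955-41833044: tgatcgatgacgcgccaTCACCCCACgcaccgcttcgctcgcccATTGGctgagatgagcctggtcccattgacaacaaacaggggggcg
MVK, chr12:109573581-109573760: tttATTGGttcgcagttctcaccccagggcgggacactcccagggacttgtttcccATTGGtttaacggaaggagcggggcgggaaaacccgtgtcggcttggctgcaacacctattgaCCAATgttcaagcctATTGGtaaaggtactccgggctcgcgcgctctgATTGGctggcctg
HSD17B7, chr1:162790592-162790671: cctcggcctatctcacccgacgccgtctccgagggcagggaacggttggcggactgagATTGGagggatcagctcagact
TM7SF2, chr11:65111782-65111811: ccgcccccgagcgccgATTGGctggtgtgc

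The SREBF2 stretch holds 1 match to TCACNCCAC, a core of the sterol regulatory element, from 133 to 125 bases before the start, and 1 CCAAT on the opposite strand. The MVK stretch holds 5 CCAAT matches, and those of HSD17B7 and TM7SF2, which are shorter, hold 1 each. The whole HSD17B7 window holds 2, of which 1 lies after the start and outside the printed stretch. By GENCODE v44 on GRCh38, SREBF2 (ENSG00000198911) spans chr22:41833105-41907306, MVK (ENSG00000110921) chr12:109573255-109598125, HSD17B7 (ENSG00000132196) chr1:162790702-162812823 and TM7SF2 (ENSG00000149809) chr11:65111845-65116384, all on the plus strand. By these spans the MVK stretch lies inside the annotated gene, and those of SREBF2, HSD17B7 and TM7SF2 lie before the annotated start. In that annotation SREBF2 shares exon bases with the antisense gene SREBF2-AS1, and TM7SF2 with VPS51. Where the stretches lie relative to exons and introns was not examined. Over the 25 windows, SREBF2 alone held TCACNCCAC (4% of members, against 1.13% of 35116 windows). The shorter CACNCCAC, which every TCACNCCAC contains, was in 4 windows (16%, against 5.87%). CCAAT was in 17 windows (68%, against 34.6%), of which 12 belonged to the 15 synthesis genes matched. The GC box GGGCGG was in 24 windows (96%, against 45%). The 35116 windows were not limited to genes tested here, whereas all members were tested, and only the members were reduced to 1 window each. How the members compare with other tested genes was not examined. These matches describe letters only, on both strands, and a window without a match shows only that the letters are not in those 300 bases.

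Libraries held 20597736 to 28245693 counts, of which 28801 to 49399 fell on the 29 members. Levels are given as CPM, a gene's counts divided by the library total in units of 1000000 counts after TMM scaling, and the word called, or rose and fell, is kept for genes whose edgeR quasi-likelihood p, adjusted by Benjamini-Hochberg, was under 0.05 and whose absolute log2 fold change was over 0.5. Of 8 fibroblast markers, all were tested and expressed, with a summed level per kilobase of exon of 2790 to 3192 CPM in Proliferative, 2516 to 2576 in Sen(IR), 2228 to 2457 in Sen(IR+CTPI2) and 1352 to 1413 in Sen(IR+UK5099). With UK5099, 5 of the 8 fell against Sen(IR), namely COL1A1, COL1A2, COL3A1, COL6A1 and THY1. Not called were VIM (log2 fold change -0.14, edgeR adjusted p = 0.0337), PDGFRB (adjusted p = 0.547) and the matrix proteoglycan gene DCN (adjusted p = 0.993). Summed epithelial markers (3 genes) reached at most 1.32 CPM and endothelial markers (3 genes) at most 1.36 CPM. Leukocyte markers (3 genes) summed to 0.172 to 0.256 CPM in Proliferative and 2.44 to 4.87 CPM in the irradiated groups, nearly all of it CD14, with CD3E at 0 to 1 counts in every library. The proliferation gene MKI67 averaged 235 CPM in Proliferative, 10.97 in Sen(IR), 12.5 in Sen(IR+CTPI2) and 0.95 in Sen(IR+UK5099), and the arrest gene CDKN1A averaged 315, 1055, 1089 and 1098 CPM. Mitochondrially encoded genes took 2.36 to 2.68% of counts in Proliferative, 2.39 to 3.28% across Sen(IR) and Sen(IR+CTPI2), and 3.81 to 4.23% with UK5099. With mitochondrial genes left out of the fit, 16 members were called in Sen(IR) against Proliferative and 4 in Sen(IR+UK5099) against Sen(IR). These counts were the same with the mitochondrial genes kept. Beyond that, the part of the differences of this paragraph in the sterol results was not tested.

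**Figure D1:**
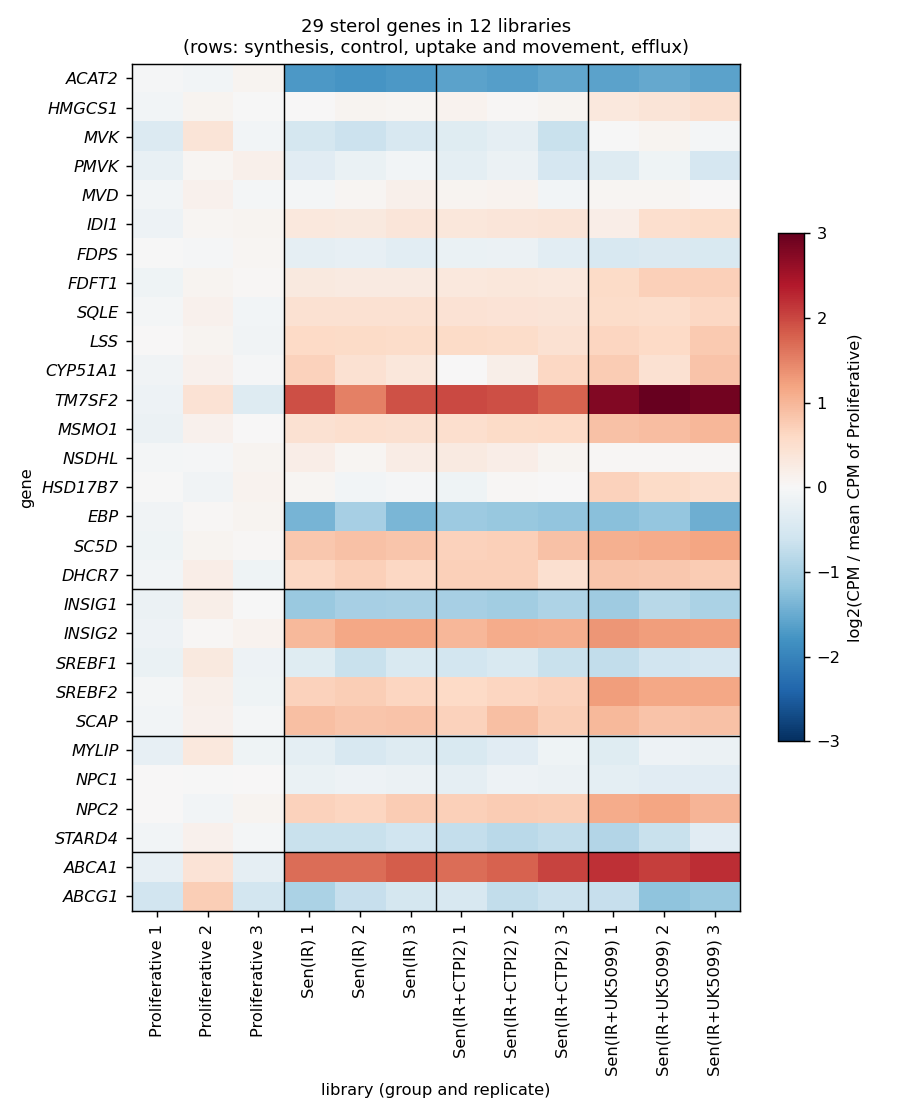
Each cell shows the log2 ratio of a member's CPM in 1 library to its mean CPM in the 3 Proliferative libraries, with genes in rows (synthesis, control, uptake and movement, efflux, separated by lines) and the 12 libraries in columns. TM7SF2 and ABCA1 are the most raised rows in every irradiated library and ACAT2 the most lowered, and the Sen(IR) and Sen(IR+CTPI2) columns look alike while SREBF2, HSD17B7 and TM7SF2 are higher in the Sen(IR+UK5099) columns.

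Irradiated cells were first compared with growing cells. Of the 29 members, 10 rose and 6 fell in Sen(IR) against Proliferative (55.2% called), where over all genes tested 24.8% rose and 22.4% fell. The rises were TM7SF2, ABCA1, INSIG2, SCAP, SC5D, NPC2, SREBF2, DHCR7, LSS and CYP51A1, and the falls were ACAT2, EBP, INSIG1, ABCG1, STARD4 and MVK. The Sen(IR) and Proliferative libraries did not overlap for 23 of 29 members (14 above, 9 below), where 70.9% of all genes tested did not overlap. The members' median log2 fold change was 0.16 and that of all genes 0.01. The members moved in both directions, as all genes tested did, of which 47.2% were called and 50.8% had a positive change. Changes of opposite sign occurred within each of the 4 roles.

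Within synthesis, 5 of 18 genes rose and 3 fell. TM7SF2, a sterol C14-reductase that acts just after lanosterol demethylation, had the largest rise. Its level was 1.41, 2.104 and 1.19 CPM in the Proliferative libraries and 6.01, 4.50 and 5.88 CPM in Sen(IR). Every Sen(IR) library lay above every Proliferative library, a log2 fold change of 1.81 ± 0.19 (SE, adjusted p = 1.31e-08, edgeR). The gene had few reads in growing cells, 32 to 49 counts a library. VPS51, which overlaps TM7SF2 on 0.528% of its exon bases, averaged 21.1 CPM in Proliferative and 14.05 CPM in Sen(IR).

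ACAT2, the cytosolic thiolase that joins 2 acetyl-CoA molecules at the entry of the route, fell furthest. It was at 65.4, 63.4 and 71.0 CPM in Proliferative and at 20.1, 19.7 and 20.1 CPM in Sen(IR), with no overlap. The log2 fold change was -1.74 ± 0.07 (SE, adjusted p = 4.04e-16), a 3.34-fold lower level. ACAT2 shares 22.2% of its exon bases with other genes, chiefly TCP1 on the opposite strand, which averaged 422 CPM in Proliferative and 231 CPM in Sen(IR), and whether the counting used strand is not stated.

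The later steps of synthesis did not move as a block. EBP, the sterol isomerase, fell by 1.25 ± 0.11 on the log2 scale (SE, adjusted p = 8.46e-10), from 21.4 ± 1.36 CPM (SD, n = 3) to 8.10, 10.7 and 8.19 CPM in the 3 Sen(IR) libraries. SC5D, the desaturase that acts after it, rose by 0.85 ± 0.06 (adjusted p = 6.77e-11), from 59.4 ± 4.58 to 107 ± 2.70 CPM. DHCR7, which reduces 7-dehydrocholesterol to cholesterol, rose by 0.66 ± 0.08 (adjusted p = 1.39e-07). LSS, which cyclizes the squalene epoxide to lanosterol, rose by 0.58 ± 0.06 (adjusted p = 2.68e-08). The neighbours EBP, SC5D and DHCR7 thus moved in different directions.

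2 further calls in synthesis were close to a limit. CYP51A1, the lanosterol demethylase, had a log2 fold change of 0.51 ± 0.16 (adjusted p = 0.00798), and leaving out Sen(IR) replicate 1 gave 0.40 with an adjusted p of 0.0579. Without Proliferative replicate 1 or 3 the change was 0.46 or 0.49, under the limit. It shares 74.1% of its exon bases with other genes in the annotation and reached only 4.53 to 7.34 CPM on average, so its level here is uncertain. MVK, mevalonate kinase, had a log2 fold change of -0.54 ± 0.16 (adjusted p = 0.00463), with 7.04, 12.3 and 8.89 CPM in Proliferative and 6.58, 6.07 and 6.77 CPM in Sen(IR). Leaving out Proliferative replicate 2 gave MVK a change of -0.30 with an adjusted p of 0.0594, and leaving out Sen(IR) replicate 2 gave -0.49, so the call was lost without either library.

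10 synthesis genes were not called. 5 of them had an adjusted p under 0.05 with a change below the limit: MSMO1 at 0.48, SQLE at 0.46, IDI1 at 0.32, FDFT1 at 0.27 and FDPS at -0.28 on the log2 scale. MSMO1 and SQLE, a C4-demethylase subunit and squalene epoxidase, stood just inside the limit, and leaving out Proliferative replicate 2 moved them to 0.55 and 0.52. The condensing synthase HMGCS1 (0.05), MVD (0.06), PMVK (-0.21), NSDHL (0.16) and HSD17B7 (-0.02) had adjusted p between 0.065 and 0.891.

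Among the 5 control genes, 3 rose and 1 fell. INSIG1 and INSIG2, a pair of related proteins that both retain SCAP, moved in opposite directions. INSIG1 was at 70.6, 90.6 and 79.0 CPM in Proliferative and at 37.1, 39.9 and 40.8 CPM in Sen(IR), without overlap. Its log2 fold change was -1.03 ± 0.08 (SE, adjusted p = 1.02e-10). INSIG2 was at 16.3, 18.6 and 19.4 CPM in Proliferative and at 35.8, 40.2 and 40.6 CPM in Sen(IR), also without overlap. Its log2 fold change was 1.10 ± 0.08 (adjusted p = 1.49e-11). Per kilobase of exon, the mean level of INSIG1 was 21.9 CPM and that of INSIG2 4.59 CPM in growing cells, while in Sen(IR) they were 10.8 and 9.85 CPM. The level of INSIG1 RNA per length was thus well above that of INSIG2 in growing cells and close to it in Sen(IR).

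SREBF2 was at 63.3, 73.1 and 60.1 CPM in Proliferative and at 106, 109 and 102 CPM in Sen(IR). The groups did not overlap and the log2 fold change was 0.69 ± 0.06 (adjusted p = 2.23e-09). SCAP rose by 0.87 ± 0.07 (adjusted p = 1.81e-10), from 38.7 ± 3.37 to 70.4 ± 2.05 CPM (SD, n = 3). SREBF1, whose products act mainly on fatty acid genes, was not called, with 25.6, 36.5 and 26.8 CPM in Proliferative and 23.05, 18.8 and 21.5 CPM in Sen(IR). Its log2 fold change of -0.49 ± 0.11 (adjusted p = 5.10e-04) lay just inside the limit, and leaving out replicate 1 or 3 of either group took it past, to between -0.50 and -0.58.

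Of the 4 genes of uptake and movement, 1 rose and 1 fell. NPC2, a soluble lysosomal protein that hands cholesterol to NPC1, was at 68.3, 63.9 and 71.6 CPM in Proliferative and at 109.9, 106 and 115 CPM in Sen(IR). It rose by 0.70 ± 0.06 on the log2 scale (adjusted p = 2.79e-10). NPC1, its membrane partner, was at 119, 117 and 120.0 CPM in Proliferative and at 103, 107 and 105 CPM in Sen(IR), a change of -0.17 ± 0.05 (adjusted p = 0.00357) that lay under the limit. Both members of the pair left the range of the growing cells, NPC2 upward and NPC1 downward.

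STARD4, a carrier that moves cholesterol between membranes and is itself an SREBP-2 target, was at 49.99, 58.3 and 50.6 CPM in Proliferative and at 33.1, 33.4 and 35.2 CPM in Sen(IR). It fell by 0.64 ± 0.09 on the log2 scale (adjusted p = 2.37e-06), with no overlap. MYLIP was at 10.7, 16.0 and 11.6 CPM in Proliferative and at 10.46, 9.15 and 9.76 CPM in Sen(IR). Its change of -0.38 ± 0.13 (adjusted p = 0.0145) was not called.

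Both efflux genes were called, in opposite directions and with unequal firmness. ABCA1, which loads cholesterol onto apolipoprotein, was at 29.04, 45.3 and 28.2 CPM in Proliferative and at 109, 109.7 and 121 CPM in Sen(IR). Every irradiated library lay far above every growing one, with a log2 fold change of 1.73 ± 0.12 (adjusted p = 2.06e-11), or 3.32-fold. ABCG1, which passes cholesterol to lipoprotein particles, was at 2.56, 6.35 and 2.60 CPM in Proliferative and at 2.00, 2.37 and 2.65 CPM in Sen(IR). The groups overlapped. Its log2 fold change of -0.71 ± 0.28 (adjusted p = 0.0287) became -0.15 with an adjusted p of 0.576 without Proliferative replicate 2. The call was also lost without Sen(IR) replicate 1 (adjusted p = 0.104) or replicate 2 (adjusted p = 0.0607), at changes of -0.60 and -0.72. Proliferative replicate 2 was the highest of the Proliferative group for 19 of the 29 members, and replicate 3 for the other 10. The share over all genes was not computed. In the whole table the chi-square per gene was 10.3 and 12.2 for the Proliferative pairs with replicate 2, and 7.37 for replicates 1 and 3.

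**Figure D2:**
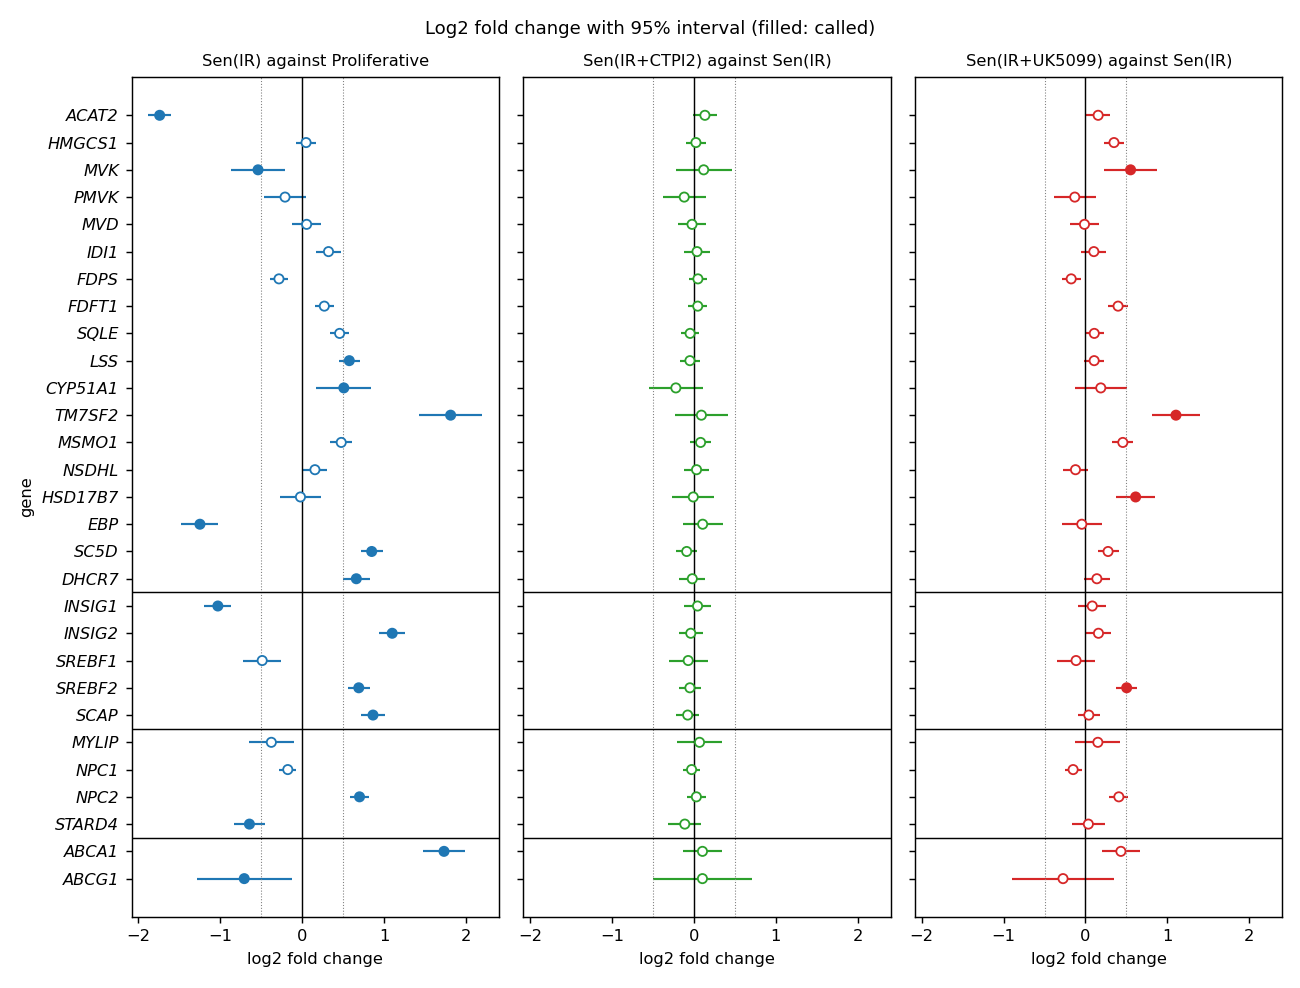
Points give the log2 fold change of each member in Sen(IR) against Proliferative, Sen(IR+CTPI2) against Sen(IR) and Sen(IR+UK5099) against Sen(IR), bars the 95% interval from the edgeR fit, filled points the called genes and dotted lines the limit of 0.5. Calls lie on both sides in the first panel (10 higher, 6 lower), there are 0 in the second, and the 4 calls of the third all lie to the right.

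UK5099 was next compared with untreated irradiated cells. TM7SF2, HSD17B7, MVK and SREBF2 rose and 0 members fell. The 4 rises are 13.8% of the members, where 8.76% of all genes tested rose and 12.1% fell. At an unadjusted p under 0.05 there were 14 of 29 members, against 51.6% of all genes tested. An adjusted p under 0.05 was reached by 12 members, the 4 called and 8 with a change below the limit, against 45.4% of all genes. The UK5099 libraries did not overlap those of Sen(IR) for 17 members (14 above, 3 below), where 56.6% of all genes tested did not overlap. The median log2 fold change was 0.14 for the members and 0.01 for all genes.

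TM7SF2 had the largest change of all members. It was at 10.8, 12.8 and 11.7 CPM with UK5099 against 6.01, 4.50 and 5.88 CPM in Sen(IR), where the lowest treated library was well above the highest untreated one. The log2 fold change was 1.10 ± 0.14 (SE, adjusted p = 1.44e-06, edgeR), or 2.15-fold. Against growing cells the change of TM7SF2 with UK5099 was 2.92 ± 0.17 (adjusted p = 5.73e-13), or 7.55-fold, so that its mean level stepped from 1.57 to 5.46 to 11.8 CPM across the 3 groups. The overlapping VPS51 averaged 16.3 CPM with UK5099.

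HSD17B7, the sterol 3-keto reductase that works with MSMO1 and NSDHL in removing the C4 methyl groups, was at 9.48, 8.83 and 8.37 CPM with UK5099. The other libraries ran from 5.35 to 6.36 CPM, so the 3 treated libraries were the highest of the 12. Against Sen(IR), at 6.14, 5.55 and 5.74 CPM, the log2 fold change was 0.61 ± 0.12 (adjusted p = 1.72e-04). Sen(IR) against Proliferative gave -0.02 ± 0.12 for the same gene (adjusted p = 0.891). The copy HSD17B7P2 had 13 to 24 counts in Sen(IR) and 31 to 52 with UK5099, and reads may be split between the 2 genes.

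MVK was at 9.31, 10.01 and 9.11 CPM with UK5099 against 6.58, 6.07 and 6.77 CPM in Sen(IR), without overlap. The log2 fold change was 0.55 ± 0.16 (adjusted p = 0.0066). With UK5099 its mean of 9.48 CPM lay beside that of growing cells, 9.41 CPM, where the single libraries spread from 7.04 to 12.3 CPM. MMAB, which shares a promoter region with MVK and overlaps 2.495% of its exon bases, averaged 12.7 CPM with UK5099 and 7.85 CPM in Sen(IR).

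SREBF2 was at 157, 147 and 145 CPM with UK5099 and at 106, 109 and 102 CPM in Sen(IR), again without overlap. The log2 fold change was 0.50 ± 0.06 (adjusted p = 7.19e-07). The change stood at the limit of 0.5, so the call was lost at 0.47 without Sen(IR+UK5099) replicate 1 and at 0.48 without Sen(IR) replicate 3, although the adjusted p was then 1.27e-05 and 2.10e-05. Against growing cells the change was 1.19 ± 0.06 (adjusted p = 1.10e-13), from 65.5 ± 6.78 to 149.8 ± 6.03 CPM (SD, n = 3). SREBF2-AS1, on the opposite strand, averaged 1.75 CPM in Proliferative, 2.49 in Sen(IR) and 2.68 with UK5099.

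**Figure D3:**
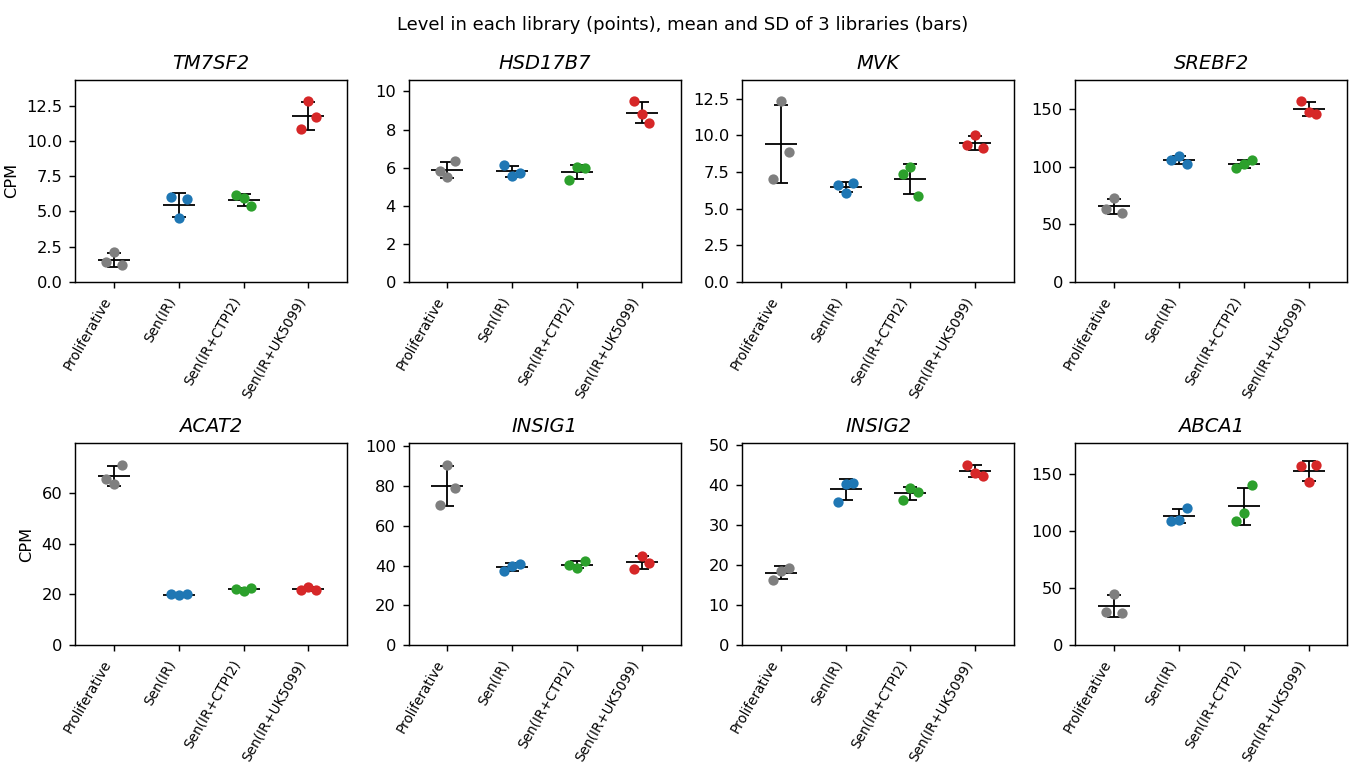
Points show CPM in each library for 8 members, with the mean and SD of the 3 libraries as bars, on axes that start at 0. TM7SF2 and SREBF2 step up from Proliferative to Sen(IR) and again with UK5099, HSD17B7 differs only with UK5099 (8.89 CPM against 5.78 to 5.88), and ACAT2, INSIG1 and INSIG2 separate growing from irradiated cells.

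The other synthesis genes with an adjusted p under 0.05 moved less. MSMO1 was at 147, 150.1 and 158 CPM with UK5099 and at 109, 113 and 110.1 CPM in Sen(IR), with a log2 fold change of 0.46 ± 0.06 (adjusted p = 2.86e-06). FDFT1, squalene synthase, changed by 0.40 (adjusted p = 5.10e-06), HMGCS1 by 0.35 (5.42e-05) and SC5D by 0.28 (8.99e-04). FDPS, which makes farnesyl diphosphate one step before squalene synthase, changed by -0.17 (adjusted p = 0.0129). The remaining 10 synthesis genes, among them ACAT2 (0.15), SQLE (0.11), LSS (0.11), DHCR7 (0.14), IDI1 (0.10), CYP51A1 (0.19), PMVK (-0.13), NSDHL (-0.12), EBP (-0.04) and MVD (-0.01), had adjusted p between 0.076 and 0.923. The summed level of the 18 enzymes per kilobase of exon was 190.02 to 211 CPM in Proliferative, 212 to 215 in Sen(IR), 214 to 220 in Sen(IR+CTPI2) and 235 to 252 in Sen(IR+UK5099).

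In the control group only SREBF2 was called with UK5099. INSIG2 was at 45.0, 42.9 and 42.2 CPM with UK5099, above all 3 Sen(IR) libraries, with a log2 fold change of 0.16 ± 0.07 (adjusted p = 0.073). INSIG1 was at 38.5, 44.8 and 41.4 CPM and overlapped Sen(IR), with a change of 0.08 ± 0.08 (adjusted p = 0.43). SREBF1 was at 17.8, 19.9 and 20.8 CPM, with a change of -0.11 ± 0.11 (adjusted p = 0.436). SCAP changed by 0.04 (adjusted p = 0.652). For INSIG1 the 95% interval ran from -0.09 to 0.25 and for SREBF1 from -0.35 to 0.12, and both include no change.

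In uptake and movement 0 genes were called. NPC2 was at 146, 155 and 139 CPM with UK5099, above every Sen(IR) library, with a log2 fold change of 0.41 ± 0.06 (adjusted p = 2.98e-06). NPC1 was at 97.0, 93.8 and 93.2 CPM, below every Sen(IR) library, with a change of -0.15 ± 0.05 (adjusted p = 0.0172). The lysosomal partners thus differed from Sen(IR) in opposite directions, as they had against growing cells, and both changes were below the limit. STARD4 was at 28.9, 33.6 and 41.6 CPM and MYLIP at 9.98, 11.4 and 11.2 CPM with UK5099. Their log2 fold changes of 0.04 ± 0.10 and 0.15 ± 0.13 had adjusted p of 0.792 and 0.373.

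Of the exporters, ABCA1 was at 157, 143 and 158 CPM with UK5099, higher than the 109 to 121 CPM of Sen(IR). The log2 fold change of 0.43 ± 0.11 (adjusted p = 0.00323) was below the limit, and the DESeq2 test gave an adjusted p of 0.0682. ABCG1 was at 2.36, 1.67 and 1.78 CPM with UK5099, with a change of -0.27 ± 0.30 (adjusted p = 0.486). At 45 to 63 counts a library in the irradiated groups, ABCG1 had the widest intervals of the 29 members.

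CTPI2 was compared with untreated irradiated cells in the same fit. In edgeR 0 of 29 members were called, 0 had an unadjusted p under 0.05 (against 7.27% of all genes tested), and the DESeq2 test also called 0. Over all genes tested 0.166% were called in either direction. The log2 fold changes ran from -0.22 ± 0.16 for CYP51A1 to 0.14 ± 0.07 for ACAT2, with a median of 0.03. TM7SF2 was at 6.18, 5.94 and 5.37 CPM with CTPI2, inside or beside the range of Sen(IR), and SREBF2 was at 98.7, 103 and 106 CPM. Their changes were 0.09 ± 0.15 and -0.05 ± 0.06. HSD17B7, at 5.35, 6.03 and 5.97 CPM, changed by -0.01 ± 0.12. All 29 intervals lay within a log2 change of 1 and 27 of them within 0.5, and the widest bounds were -0.55 for CYP51A1 and 0.72 for ABCG1. The groups did not overlap for 4 members (ACAT2, FDFT1, SQLE and STARD4), where 15.1% of all genes tested did not overlap.

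The inhibitors were also set against each other, a comparison in which dose and target differ together. TM7SF2, SREBF2 and HSD17B7 were higher with UK5099 than with CTPI2 and 0 members were lower, where 8.2% of all genes tested were higher and 11.7% lower. The log2 fold changes were 1.01 ± 0.14 for TM7SF2 (adjusted p = 4.07e-06), 0.62 ± 0.12 for HSD17B7 (adjusted p = 1.44e-04) and 0.55 ± 0.06 for SREBF2 (adjusted p = 2.18e-07). MVK, at 7.37, 7.84 and 5.89 CPM with CTPI2, differed by 0.43 ± 0.15 (adjusted p = 0.0272), under the limit. The median was 0.15 for the members and 0.01 for all genes.

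Against growing cells, the UK5099 group had 14 members higher and 6 lower, where 26.9% of all genes tested were higher and 26.2% lower. This comparison shares its libraries with those above and its values are given beside them. The largest changes were TM7SF2, ABCA1 at 2.16 ± 0.12 (adjusted p = 2.84e-13), INSIG2 at 1.26 ± 0.07 (adjusted p = 8.03e-13), SREBF2, and NPC2 at 1.11 ± 0.06 (adjusted p = 5.66e-14). MSMO1 changed by 0.93 and FDFT1 by 0.67, both called here, and HSD17B7 by 0.59. ACAT2 at -1.58, EBP at -1.29 and INSIG1 at -0.95 were among the called falls, and MVK at 0.01 ± 0.15 was not called.

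**Figure D4:**
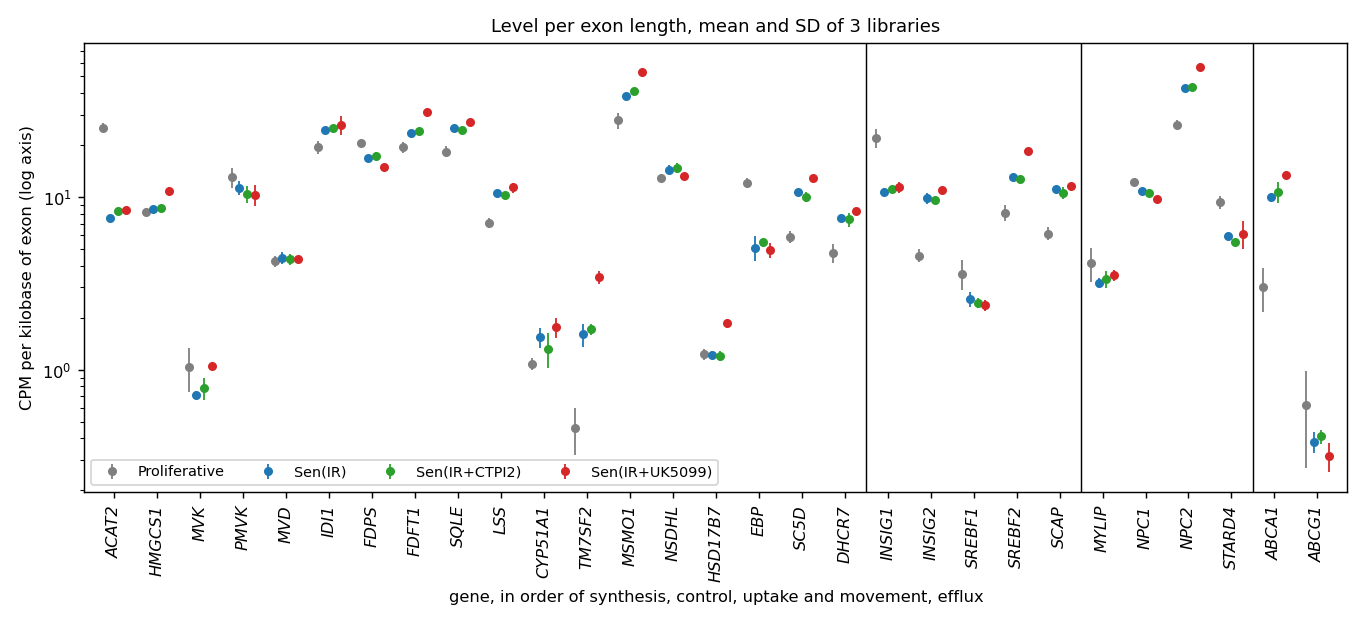
Points give the mean CPM per kilobase of exon, on a log axis, with the SD of 3 libraries as bars, for each member in the 4 groups. NPC2 and MSMO1 have the highest levels in the irradiated groups (42.8 and 38.8 in Sen(IR)), while ABCG1, MVK, HSD17B7, CYP51A1, TM7SF2 and SREBF1 stay under 4 in every group.

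Per kilobase of exon the members spanned a wide range of levels. In Sen(IR), NPC2 at 42.8 CPM and MSMO1 at 38.8 CPM led, followed by SQLE at 25.2, IDI1 at 24.4 and FDFT1 at 23.5. ABCG1 at 0.382, MVK at 0.718, HSD17B7 at 1.21, CYP51A1 at 1.54 and TM7SF2 at 1.60 were the lowest. The genes called higher with UK5099 included 3 of these 5, MVK, HSD17B7 and TM7SF2, while ABCG1 and CYP51A1 were not called. The share called among low-level genes of the whole table was not computed. The length counts exon bases of all annotated transcripts, so these ranks depend on the annotation. CYP51A1 shares 74.1% of its exon bases with other genes. In growing cells the highest levels were MSMO1 at 27.8, NPC2 at 26.3 and ACAT2 at 25.2, which lay within each other's spread.

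The order of the 4 group means varied among the members, and the share of each order over all genes was not computed. For 15 members the order ran from Sen(IR+UK5099) at the top to Proliferative at the bottom with Sen(IR) and Sen(IR+CTPI2) between, in 1 order of the middle pair for 8 and in the other for 7. An order ranks means whether or not they differ. Of these 15, SCAP, IDI1, LSS and CYP51A1 had edgeR adjusted p of 0.652, 0.276, 0.162 and 0.337 for UK5099 against Sen(IR). For 10 members Proliferative was highest. Only MVK and HSD17B7 had Sen(IR+UK5099) first and Proliferative second, and for HSD17B7 the lower 3 means, and for MVK the upper 2, lay within the spread of their libraries. The middle pair, Sen(IR) and Sen(IR+CTPI2), was called different for 0 members.

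In bulk RNA, a change in the number of cells that express a gene and a change in its RNA per cell cannot be told apart. This holds for every rise and every fall given above. 6 members, ACAT2, HMGCS1, IDI1, FDPS, CYP51A1 and EBP, share over 10% of their exon bases with another annotated gene, so their counts may have lost or gained reads. Upper-quartile scaling raised the median of all genes by 0.12 in Sen(IR) against Proliferative and by 0.14 in Sen(IR+UK5099) against Proliferative, which turned the 10 rises and 6 falls into 12 and 4, and the 14 and 6 into 16 and 4. TM7SF2, ABCA1, INSIG2, ACAT2, EBP and INSIG1 kept their direction and call under that scaling.

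Other genes of the pathway, 32 by a list of sterol processing, mevalonate branches, storage, LXR and sterol movement genes, were read from the same fit. With UK5099 against Sen(IR), 2 rose and 4 fell (18.8% called), where 8.76% of all genes tested rose and 12.1% fell, so the list lay near the background. GRAMD1C, a carrier between plasma membrane and endoplasmic reticulum, rose by 0.99 ± 0.10 on the log2 scale (adjusted p = 7.25e-08), from 6.36 to 12.6 CPM. ERG28, a scaffold of the C4-demethylation enzymes, rose by 0.52 ± 0.07 (adjusted p = 4.17e-06), from 27.7 to 39.8 CPM. Among the falls, NCEH1, a cholesteryl ester hydrolase, fell by 1.13 ± 0.09 (adjusted p = 6.73e-10), from 126 to 57.8 CPM. CYP7B1, an oxysterol hydroxylase, fell by 1.25 ± 0.46 (adjusted p = 0.0301) at 11 to 15 counts in Sen(IR) and 5 to 9 with UK5099. CH25H, which makes 25-hydroxycholesterol, had 23, 17 and 30 counts in Sen(IR) and 0, 3 and 0 with UK5099, at least 9.38-fold lower against a floor of 3 counts a library. TMEM97, an SREBP target and sterol-binding protein named after its values were seen, fell by 0.75 ± 0.10 (adjusted p = 1.38e-06). In the other comparisons of this list, Sen(IR) against Proliferative gave 8 rises and 8 falls, 50% of the list against 47.2% of all genes. UK5099 against CTPI2 gave 3 and 3 (18.8%, against 19.9%), and UK5099 against Proliferative 11 and 7 (56.2%, against 53.1%). CTPI2 against Sen(IR) gave 0 calls in edgeR, with 3 of 32 at an unadjusted p under 0.05, where 7.27% of all genes were.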

How the data were processed

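RNA from 12 MRC5 libraries in 4 groups was sequenced by the study as paired ends. Per the labels and methods, the authors used Trimmomatic 0.36 for trimming and STAR 2.5.2b for alignment to GRCh38, and counted unique reads in exons by gene with featureCounts (Subread 1.5.2). The deposited counts are raw and unpooled, and whether counting used strand is not stated. Column names gave each library's group, and 0 columns were left unused.

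From these counts, edgeR 4.0.16 in R 4.3.3 (filterByExpr, TMM, quasi-likelihood test) was fitted to all 12 libraries and 16251 genes, with 5 comparisons and no replicate term. Benjamini-Hochberg adjustment ran over the whole table, and calls required an adjusted p under 0.05 and an absolute log2 fold change over 0.5, the fold limit of the study. The SE is the absolute log2 fold change divided by the square root of F. Total counts of 20597736 to 28245693 a library set the depth, and the coefficient of variation between replicates was 6.12%. Between replicates the chi-square per gene was 2.21 to 12.2 where sampling alone gives about 1, so none was a duplicate. On simulated Sen(IR+UK5099) against Sen(IR) counts with 15856 genes tested, 196 of 200 changed genes were recovered with 4 false calls. That total gives no recovery for changes near the fold limit of 0.5 or for genes with few counts. Recovery in those was not tested.

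The members and lists were chosen with earlier results of these data known. Each library's value is given for the 4 members of each role (2 for efflux) with the largest change with UK5099 and the 2 with the largest change in Sen(IR), and for the members discussed beside them. Of the other pathway genes, the 3 largest called changes in each direction with UK5099 are named. Gene positions, exon lengths and overlaps came from GENCODE v44, and promoter windows from RefSeq on GRCh38.p14. Alternatives were DESeq2 1.42.0, RLE and upper-quartile scaling, mitochondrial genes left out, a fit of the 2 compared groups alone, all genes kept without a filter, a replicate block, leaving out each single library, a fold limit of 1, and the unadjusted p. The study's other assays were not analysed here.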

Additional observations from a re-analysis of the deposited data

How the results depend on the processing

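Raising the fold limit to an absolute log2 change of 1 left 6 of the 16 members called in Sen(IR) against Proliferative, 1 of 4 in UK5099 against Sen(IR), 1 of 3 in UK5099 against CTPI2 and 8 of 20 in UK5099 against Proliferative. Upper-quartile scaling moved the members' median log2 fold change to 0.28 in Sen(IR) against Proliferative, 0.18 in UK5099 against CTPI2 and 0.56 in UK5099 against Proliferative. Leaving out 1 library at a time gave medians from -0.011 to 0.029 for CTPI2 against Sen(IR), with the low value without Sen(IR) replicate 2, and from 0.13 to 0.17 for UK5099 against CTPI2. Among the other results, members near no change switched sign. HSD17B7 in Sen(IR) against Proliferative was 0.10 with upper-quartile scaling and -0.067 to 0.041 with 1 library left out, and MVD was -0.0017 to 0.12. With UK5099 against Sen(IR), MVD was 0.0067 with upper-quartile scaling and -0.069 to 0.045 with 1 library left out, EBP -0.12 to 0.10 and STARD4 -0.12 to 0.15. MVK in UK5099 against Proliferative ran from -0.15 to 0.25, and with CTPI2 TM7SF2 ran from -0.028 to 0.17 and HSD17B7 from -0.039 to 0.046. None of these was called in any of the settings. The SREBF2 call with UK5099 was lost, at 0.50 in each case, with RLE scaling, no filter on low counts, DESeq2 and a fit of only the 2 groups, since the change stood at the limit. ABCG1 in Sen(IR) against Proliferative lost its call with upper-quartile scaling (adjusted p = 0.0657) and DESeq2 (0.0631), CYP51A1 (0.49) with only the 2 groups fitted and MVK (-0.42) with upper-quartile scaling. SREBF1 in Sen(IR) against Proliferative was called in 5 settings, with changes of -0.50 to -0.58. The cause of these changes was not tested beyond the limit itself.

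The replicate numbers did not pair the libraries: deviations of same-numbered libraries from their group means correlated at -0.05 to 0.04. With the number as a block, the counts of called members were 16, 4, 0, 3 and 20 in the 5 comparisons, as without it. Depth limited ABCG1, with 45 to 63 counts in each irradiated library, CYP7B1 and CH25H most.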

Other observations

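The genes of this paragraph come from the same list of 32 other pathway genes and were named after their values were seen. LBR encodes the other sterol C14-reductase of human cells, besides TM7SF2, and is also a lamin B receptor of the nuclear envelope. LBR was at 135, 129 and 136 CPM in Proliferative and at 31.1, 33.2 and 35.2 CPM in Sen(IR), without overlap. It fell by 2.01 ± 0.07 on the log2 scale (SE, adjusted p = 9.05e-17, edgeR), where TM7SF2 rose by 1.81. Per kilobase of exon the mean level of LBR was 23.4 CPM in growing cells and 5.81 CPM in Sen(IR), against 0.460 and 1.60 CPM for TM7SF2. With UK5099 the values were 7.44 CPM for LBR and 3.45 CPM for TM7SF2, so LBR stayed the more abundant of the pair in each group while the gap between them narrowed. LMNB1, the gene of a lamin that LBR binds, averaged 169 CPM in Proliferative, 8.24 in Sen(IR) and 2.51 with UK5099. The LBR change with UK5099 against Sen(IR) was 0.36 ± 0.07 (adjusted p = 3.10e-04), below the limit.

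Opposite changes also occurred in ERLIN1 and ERLIN2, related proteins of the endoplasmic reticulum that restrain SREBP activation. In Sen(IR) against Proliferative ERLIN1 fell by 0.68 ± 0.05 (adjusted p = 4.22e-11) and ERLIN2 rose by 0.63 ± 0.05 (adjusted p = 9.79e-11). The lipoprotein receptor gene LRP8 was at 43.2, 39.0 and 41.4 CPM in Proliferative and at 15.4, 17.0 and 16.0 CPM in Sen(IR), and fell by 1.35 ± 0.08 (adjusted p = 4.55e-13). CH25H, with 0, 1 and 3 counts in Proliferative and 23, 17 and 30 in Sen(IR), was at least 8.96-fold higher in Sen(IR), and CYP7B1, with 1, 0 and 0 against 12, 11 and 15 counts, at least 4.86-fold higher, both against a floor of 3 counts a library.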
